A study of Mus musculus with 10 samples.

Results

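A set of 39 imprinted genes of the mouse was followed through 5 sorted cell populations measured on 10 Affymetrix Mouse Genome 430 2.0 arrays, 2 for each population. The genes were taken by symbol: 34 of the 39 have a probe set of their own in the platform's annotation, with 96 of 45037 probe sets in all once controls are left out, and 32 of the 34 passed the filter on low signals, with 81 of the 26368 probe sets tested. The list holds 22 genes expressed from the paternal allele, 16 from the maternal allele and *Gnas*, whose allele depends on the isoform. They lie in 15 imprinted domains, 13 of which hold a tested gene.

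The populations were undifferentiated ESCs of the V6.5 line (day 0, positive for cKit and SSEA1), iPGCs, germ cell-like cells made from ESCs in culture, and somatic cells of the same embryoid bodies (EBs) at day 6. In the V6.5 line, labelled 129xBL6 F1, iPGCs were sorted as positive and somatic cells as negative for cKit and SSEA1. The study describes the iPGC gate as the cells brightest for cKit, which the labels give as positive, as they do for the ESCs. In the Oct4-Gfp line, of mixed background, a reporter of *Pou5f1* took the place of SSEA1. All EBs were grown as hanging drops, so line, background and second sorting marker differ together between the lines, and the ESCs were of the V6.5 line alone. Each line is 1 cell line, and nothing read here states that the 2 arrays of a group came from separate cultures, so p-values measure only the spread between these arrays.

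Imprinted genes are transcribed from 1 parental allele, and a DNA methylation mark set in the egg or the sperm tells the alleles apart. The mark can lie on the silent allele. They sit in clusters where a differentially methylated region (DMR), often the promoter of a long noncoding RNA, governs neighbouring genes, and many of them regulate growth of the embryo and placenta. Primordial germ cells (PGCs) erase these marks on their way into the gonad, and the study asked whether iPGCs correspond to PGCs before or after that step. The arrays measure the summed RNA of both alleles, so they carry no information on which allele was read. A value below is a signal, a linear brightness scaled to a common array mean. A difference is on the log2 scale after adding 14.8 to each signal, with its standard error (SE), and a gene is called where its Benjamini-Hochberg adjusted p from limma is under 0.05. No probe set's signal is set against another's.

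ZFP57, a zinc finger protein that keeps methylation at imprints, recognises the letters TGCCGC when their CpG is methylated, and some promoters of the list carry them. RefSeq (GRCm38.p6) gives 300-base windows around gene starts, 250 before and 50 after, for 32 of the 39 genes, 47 windows in all. TGCCGC or its reverse complement GCGGCA stood in 11 of the 47 windows (23.4%) and in 11.6% of all 32851 windows in the table. Windows of the list are richer in CpG, with a median of 13 against 7, so the shares were also taken by CpG count. They were 5.88% of the list's windows and 3.26% of all windows with 0 to 9 CpGs, 37.5% (6 of 16 windows) and 14.1% with 10 to 19, and 28.6% (4 of 14 windows) and 27.8% with 20 or more. Among the 6 windows are 2 of *Mest*, which start at chr6:30737800 and chr6:30737803, so the same letters count more than once. The match is a description of letters in these windows. A pair of genes called lower in the iPGCs of both lines than in somatic cells, *Peg3* and *Mest*, and a pair called in neither line, *Plagl1* and *Snrpn*, are shown, 5′ to 3′ on the gene's strand, with the hexamer in capitals:
Peg3 (chr7:6730370-6730669, minus strand): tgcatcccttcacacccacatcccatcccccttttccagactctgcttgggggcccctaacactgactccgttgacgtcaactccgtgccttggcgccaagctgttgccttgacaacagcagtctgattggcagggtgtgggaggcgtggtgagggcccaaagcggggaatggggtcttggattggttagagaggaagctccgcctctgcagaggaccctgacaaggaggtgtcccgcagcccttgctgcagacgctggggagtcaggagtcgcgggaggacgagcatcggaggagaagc
Mest (chr6:30737800-30738099, plus strand): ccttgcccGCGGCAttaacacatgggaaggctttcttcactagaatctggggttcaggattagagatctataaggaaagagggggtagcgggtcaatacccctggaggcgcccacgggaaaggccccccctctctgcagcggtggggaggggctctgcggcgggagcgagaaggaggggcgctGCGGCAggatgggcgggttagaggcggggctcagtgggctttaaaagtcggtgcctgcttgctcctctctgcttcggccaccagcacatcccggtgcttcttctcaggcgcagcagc
Plagl1 (chr10:13090582-13090881, plus strand): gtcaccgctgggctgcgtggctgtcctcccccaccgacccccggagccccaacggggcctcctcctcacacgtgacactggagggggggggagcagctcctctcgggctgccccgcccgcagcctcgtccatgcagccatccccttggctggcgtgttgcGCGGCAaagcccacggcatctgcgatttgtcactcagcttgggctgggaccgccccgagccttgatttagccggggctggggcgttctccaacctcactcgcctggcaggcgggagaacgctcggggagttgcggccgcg
Snrpn (chr7:60005150-60005449, minus strand): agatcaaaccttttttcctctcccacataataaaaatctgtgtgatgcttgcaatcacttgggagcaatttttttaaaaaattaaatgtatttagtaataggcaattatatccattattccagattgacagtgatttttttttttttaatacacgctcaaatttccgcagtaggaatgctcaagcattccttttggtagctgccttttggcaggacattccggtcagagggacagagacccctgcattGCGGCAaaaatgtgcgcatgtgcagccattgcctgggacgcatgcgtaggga
The windows of *Peg3* and *Mest* hold 13 and 17 CpGs, with 0 and 2 hexamers. Those of *Plagl1* and *Snrpn* hold 26 and 7 CpGs, each with 1 hexamer. *Mest* and *Snrpn* have several windows, and the window shown was picked because it holds the hexamer. Another *Mest* window, with 8 CpGs, and the other *Snrpn* windows hold 0. The *Peg3* window shares 263 bases with that of *Usp29*, which starts 96 bases away in the other direction.

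The sorted fractions carried the markers of their labels. The summed signal of the 9 PGC and pluripotency markers lay between 20959 and 22512 on the iPGC arrays, 17690 and 19173 on the ESC arrays, and 772 and 1092 on the somatic arrays. The 8 mesoderm and heart markers with a tested probe set reached 22133 to 23794 on somatic arrays, 707 to 1289 on iPGC arrays and 229 to 293 on ESC arrays. Fibroblast genes, which feeder cells of ESC cultures also transcribe, summed to 9327 to 14644 on somatic arrays, 455 to 792 on iPGC arrays and 970 to 1207 on ESC arrays. The ratio of the 3' to the 5' control signal of *Gapdh*, a measure of RNA degradation, was 1.28 to 1.30 in ESCs, 1.51 to 1.63 in V6.5 iPGCs, 2.03 to 2.37 in Oct4-Gfp iPGCs and 1.65 to 2.05 in somatic cells. In bulk samples such as these, fewer cells of a type and less RNA per cell cannot be told apart.

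The imprinted genes of this list were mostly lower in iPGCs than in the somatic cells of the same EBs. In the V6.5 line 20 of the 32 tested genes were lower and 2 higher, against 24.2% and 27.3% of all 12207 genes tested. In the Oct4-Gfp line, whose arrays are not shared with the V6.5 comparison, 21 were lower and 1 higher, against 24.8% and 25.7% of all genes. The 20 genes lower in V6.5 iPGCs were lower in both lines (62.5% of the 32 genes, against 20.2% of all genes), and 0 were higher in both, against 21.4%. They came from 11 of the 13 domains and held 10 of 18 paternally expressed and 9 of 13 maternally expressed genes, with *Gnas* beside them. The median difference was -1.44 in V6.5 and -1.47 in Oct4-Gfp cells, where the medians of all genes were 0.08 and 0.04. *Airn* and *Zim1* passed the filter through somatic arrays alone, so they could only be tested because they are high there. With no filter 34 genes were tested, and 20 and 21 of them were called lower. In either direction 32.6% and 32.5% of all genes were called there. Under quantile normalization or median centring of the arrays, 19 to 21 genes were lower in either line. Of all genes, 41.7% to 54.4% were then called in either direction.

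**Figure D1:**
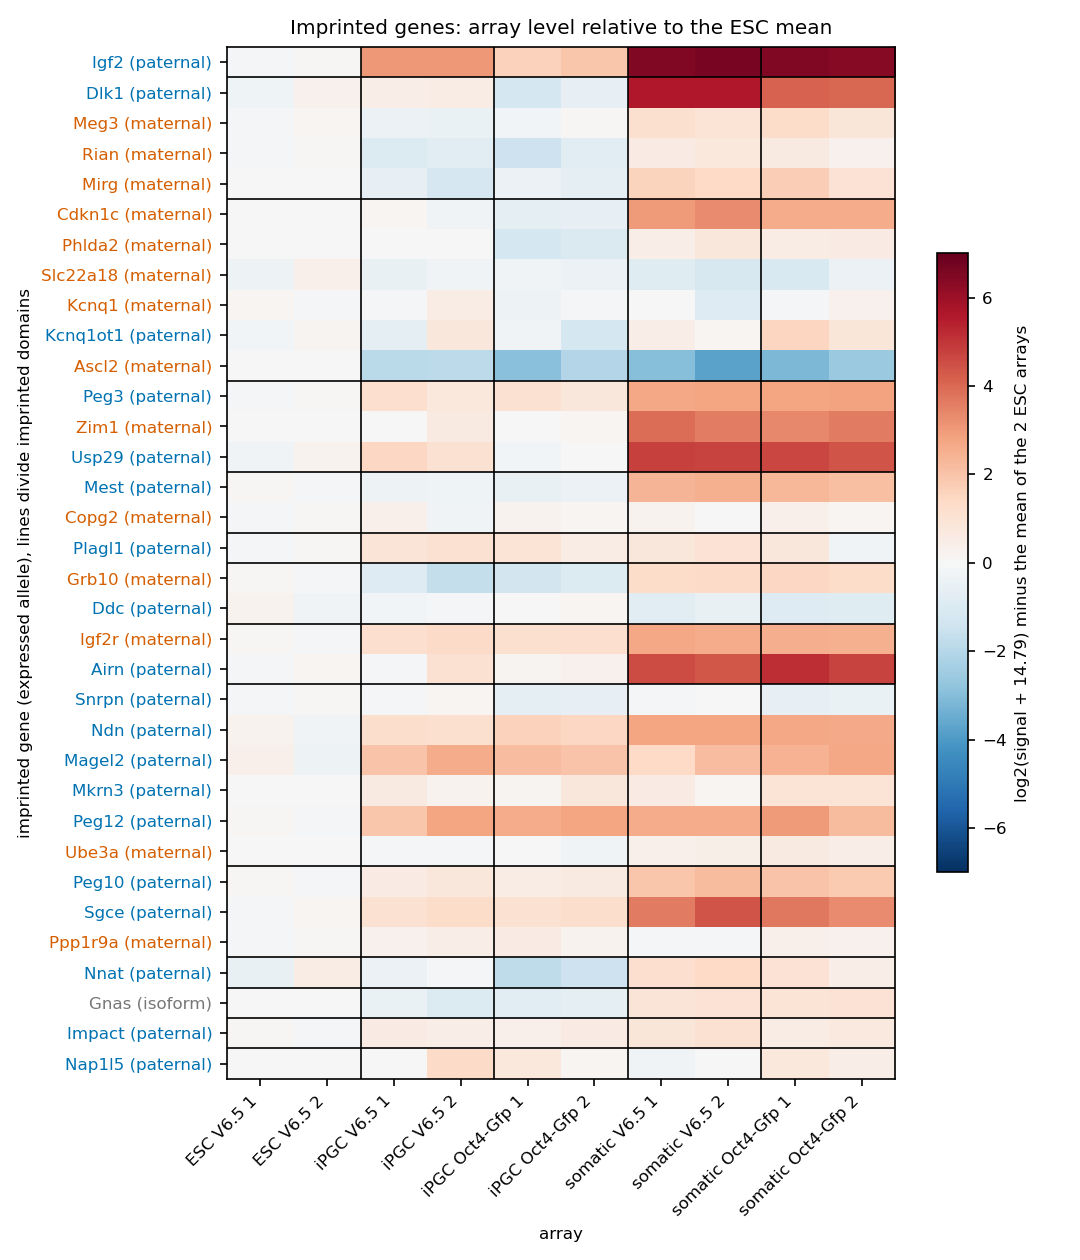
Heat map of the 34 imprinted genes with a probe set of their own (rows, with the expressed allele, grouped by imprinted domain) on the 10 arrays (columns). Colour is log2(signal + 14.8) minus the mean of the 2 ESC arrays, red above and blue below it. The 4 somatic columns are red for most rows, with *Igf2* the deepest, and the iPGC columns stay pale or blue for *Dlk1*, *Cdkn1c*, *Zim1* and *Grb10*.

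The *Igf2* and *H19* domain showed the widest range of the list. *Igf2* (chr7:142650768-142666816), a growth factor of the fetus expressed from the paternal allele, had signals of 96.8 and 110 in ESCs, 945 and 964 in iPGCs of the V6.5 line, 354 and 448 in those of the Oct4-Gfp line, 10530 and 12027 in V6.5 somatic cells and 10598 and 9804 in Oct4-Gfp somatic cells. All 4 somatic arrays lay above all iPGC arrays, and these above both ESC arrays. The difference between iPGCs and somatic cells was -3.54 ± 0.16 in V6.5 (adjusted p = 4.08e-06) and -4.63 ± 0.16 in Oct4-Gfp cells (2.31e-06), with limma. V6.5 iPGCs stood 3.04 ± 0.16 above ESCs (adjusted p = 2.08e-04). *H19* (chr7:142575530-142578146), the maternally expressed noncoding RNA downstream of *Igf2*, is read by 1 probe set that is annotated also to *Mir675*, the microRNA within it, and it is kept out of the counts above. Its signals were 54.0 and 90.1 in ESCs, 153 and 219 in iPGCs of the V6.5 line, 70.5 and 73.7 in those of the Oct4-Gfp line, 2233 and 3250 in V6.5 somatic cells and 1432 and 1768 in Oct4-Gfp somatic cells. They followed the same order of groups as *Igf2*, except that the Oct4-Gfp iPGC arrays lay within the range of ESCs. The difference was -3.77 ± 0.27 in V6.5 (adjusted p = 2.96e-05) and -4.21 ± 0.27 in Oct4-Gfp cells (1.89e-05). The paternally and the maternally expressed RNA of this domain were both higher in somatic cells.

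In the *Dlk1* to *Dio3* domain on chromosome 12 all 4 tested genes were lower in iPGCs than in somatic cells of both lines. *Dlk1* (chr12:109452485-109463336), a paternally expressed membrane protein related to Notch ligands, had signals of 60.8 and 103 in ESCs, 115 and 123 in iPGCs of the V6.5 line, 25.2 and 49.6 in those of the Oct4-Gfp line, 4629 and 4530 in V6.5 somatic cells and 1641 and 1542 in Oct4-Gfp somatic cells. iPGCs and ESCs were both low, and the Oct4-Gfp somatic arrays lay below the V6.5 somatic arrays. The difference from somatic cells was -5.10 ± 0.26 (adjusted p = 7.02e-06) in V6.5 and -4.98 ± 0.26 (8.35e-06) in Oct4-Gfp cells. The noncoding RNAs of the maternal allele moved less. *Meg3* (chr12:109540996-109571729) had signals of 2274 and 2766 in ESCs, 1871 and 1830 in iPGCs of the V6.5 line, 2179 and 2606 in those of the Oct4-Gfp line, 5441 and 4947 in V6.5 somatic cells and 6066 and 4602 in Oct4-Gfp somatic cells, and differed from somatic cells by -1.48 ± 0.18 and -1.14 ± 0.18, with all 11 of its tested probe sets lower in iPGCs of both lines. *Rian*, which hosts small nucleolar RNAs, had signals of 2843 and 3130 in ESCs, 1539 and 1765 in iPGCs of the V6.5 line, 1096 and 1694 in those of the Oct4-Gfp line, 4517 and 5005 in V6.5 somatic cells and 4543 and 3619 in Oct4-Gfp somatic cells. *Mirg*, which hosts microRNAs, had signals of 205 and 191 in ESCs, 126 and 78.7 in iPGCs of the V6.5 line, 146 and 117 in those of the Oct4-Gfp line, 611 and 541 in V6.5 somatic cells and 687 and 410 in Oct4-Gfp somatic cells. Both lay below ESCs in V6.5 iPGCs, with differences of -0.85 ± 0.22 (adjusted p = 0.0258) and -0.89 ± 0.27 (0.0459), and above ESCs in V6.5 somatic cells, by 0.67 ± 0.22 and 1.47 ± 0.27. The call of *Rian* against ESCs was lost in 6 of 22 alternatives, among them those without any 1 of the ESC or V6.5 iPGC arrays (adjusted p up to 0.124), and that of *Mirg* in 13, among them no filter, quantile normalization and those without either ESC array or V6.5 iPGC replicate 2 (up to 0.194). The rise of *Rian* in somatic cells was lost in 7 alternatives, among them those without any 1 of the arrays compared (up to 0.132). *Meg3* was -0.44 ± 0.18 against ESCs (adjusted p = 0.111), and its other probe sets gave both directions there. *Rtl1* and *Dio3*, the other paternally expressed genes of the domain, have no probe set listed.

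**Figure D2:**
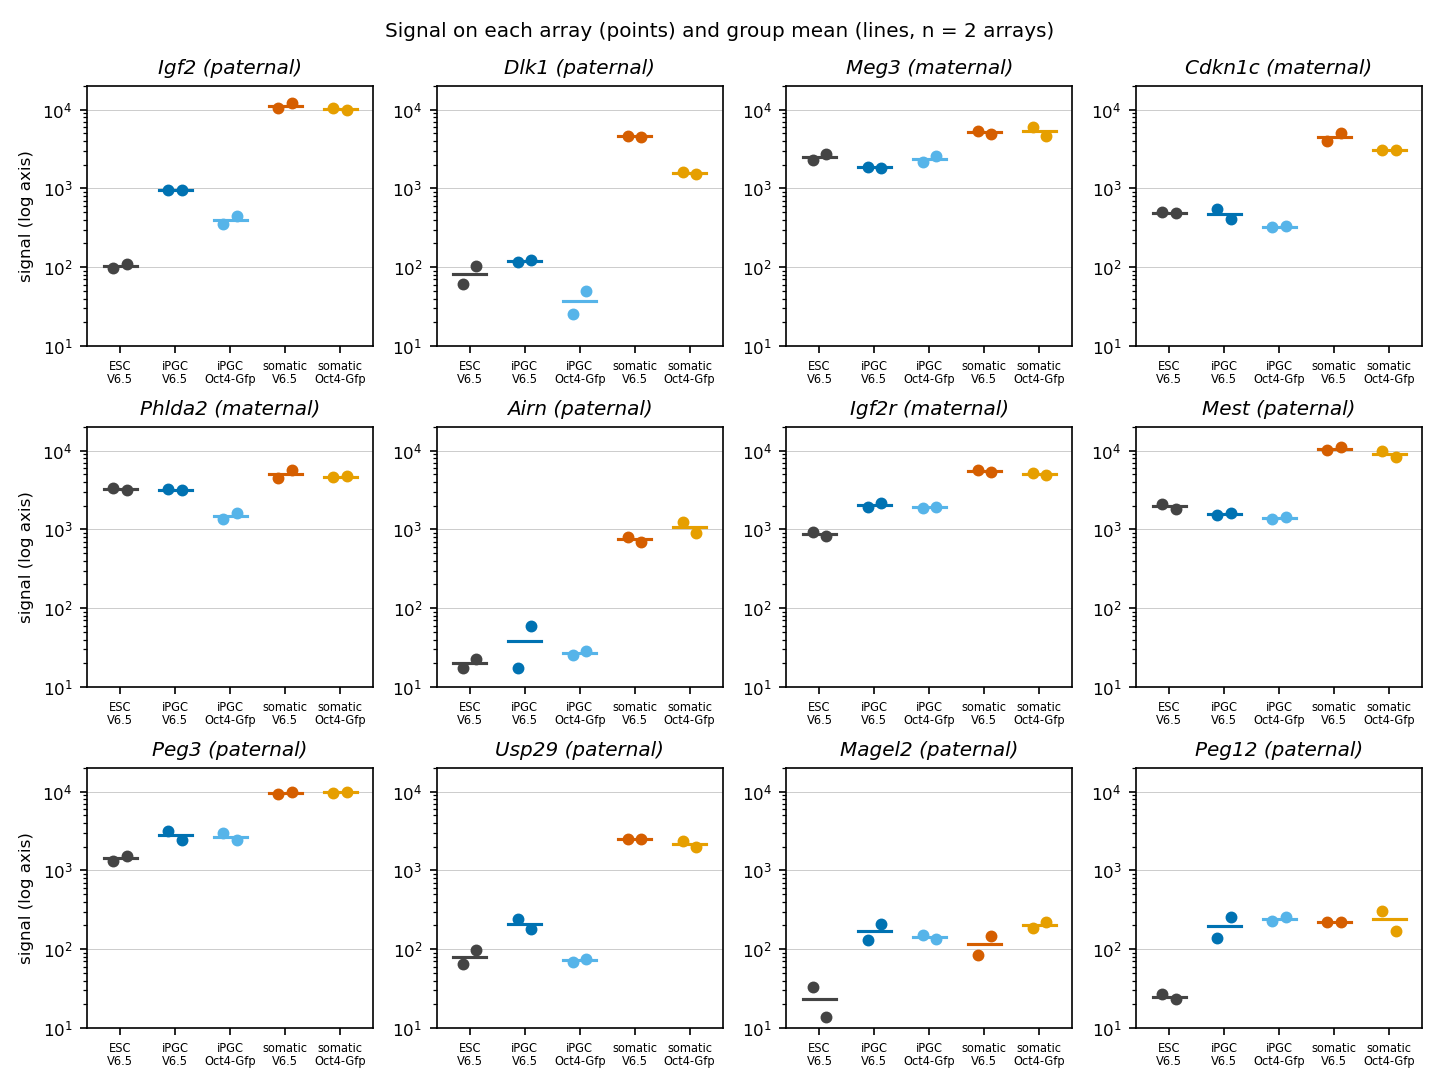
Signal on a logarithmic axis for 12 imprinted genes in the 5 groups, each point 1 array and each line the mean of 2 arrays. Somatic arrays lie above all others for *Igf2*, *Dlk1* and *Airn*, whereas *Magel2* and *Peg12* are low in ESCs and overlap between iPGCs and somatic cells.

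In the *Kcnq1* domain on chromosome 7 the genes went separate ways. *Cdkn1c* (chr7:143458339-143461059), a maternally expressed inhibitor of cyclin-dependent kinases, had signals of 497 and 490 in ESCs, 542 and 413 in iPGCs of the V6.5 line, 320 and 333 in those of the Oct4-Gfp line, 4050 and 4988 in V6.5 somatic cells and 3112 and 3058 in Oct4-Gfp somatic cells. It was lower in iPGCs than in somatic cells, with differences of -3.21 ± 0.17 and -3.18 ± 0.17 (adjusted p = 7.14e-06 and 8.04e-06), and V6.5 iPGCs and ESCs overlapped (-0.06 ± 0.17, adjusted p = 0.819). *Phlda2*, a pleckstrin homology protein that limits growth of the placenta, had signals of 3336 and 3157 in ESCs, 3260 and 3158 in iPGCs of the V6.5 line, 1375 and 1600 in those of the Oct4-Gfp line, 4473 and 5741 in V6.5 somatic cells and 4602 and 4750 in Oct4-Gfp somatic cells. The V6.5 iPGC arrays overlapped with ESCs, whereas the Oct4-Gfp iPGC arrays lay below every other array. *Ascl2*, a basic helix-loop-helix factor of trophoblast, went the other way, with signals of 300 and 290 in ESCs, 69.4 and 72.2 in iPGCs of the V6.5 line, 26.7 and 59.8 in those of the Oct4-Gfp line, 23.7 and 8.16 in V6.5 somatic cells and 19.6 and 36.0 in Oct4-Gfp somatic cells. Both ESC arrays lay above all others, and the V6.5 somatic signals lay around the background of olfactory receptor probe sets, 17.15 and 19.35 on those arrays. In Oct4-Gfp cells the difference between iPGCs and somatic cells was 0.41, not called, and the other tested probe set gave -0.53. V6.5 iPGCs differed from ESCs by -1.85 ± 0.34 (adjusted p = 0.00713) and stayed above somatic cells by 1.53 ± 0.34 (0.00714), a call lost without V6.5 somatic replicate 2 (adjusted p = 0.0501). *Kcnq1ot1*, the paternally expressed antisense RNA whose promoter is the DMR of the domain, had signals of 220 and 291 in ESCs, 153 and 443 in iPGCs of the V6.5 line, 214 and 102 in those of the Oct4-Gfp line, 353 and 277 in V6.5 somatic cells and 733 and 468 in Oct4-Gfp somatic cells. It was called in Oct4-Gfp cells alone (-1.88 ± 0.50, adjusted p = 0.0155), a call lost without Oct4-Gfp iPGC replicate 2 or Oct4-Gfp somatic replicate 1 (adjusted p up to 0.104), and the difference between the lines was -1.64 ± 0.70 (adjusted p = 0.473). The transporter gene *Slc22a18* was 0.59 ± 0.28 and 0.40 ± 0.28, not called in either line, and was lower in V6.5 somatic cells than in ESCs, with a difference of -0.98 ± 0.28. *Kcnq1*, a potassium channel subunit, stayed between 10.2 and 53.4 and was not tested.

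Both genes measured at the *Igf2r* domain were lower in iPGCs than in somatic cells, although they come from opposite alleles. *Igf2r* (chr17:12682406-12769706), the maternally expressed receptor that clears Igf2 from the cell surface, had signals of 920 and 817 in ESCs, 1948 and 2195 in iPGCs of the V6.5 line, 1893 and 1948 in those of the Oct4-Gfp line, 5678 and 5291 in V6.5 somatic cells and 5151 and 4870 in Oct4-Gfp somatic cells. The 3 cell types did not overlap, with iPGCs of both lines between ESCs and somatic cells. V6.5 iPGCs were 1.24 ± 0.13 against ESCs (adjusted p = 0.00107) and -1.40 ± 0.13 against somatic cells (1.02e-04). *Airn* (chr17:12741311-12859884), the paternally expressed noncoding RNA that overlaps *Igf2r* on the other strand, had signals of 17.5 and 22.8 in ESCs, 17.5 and 58.6 in iPGCs of the V6.5 line, 25.1 and 28.8 in those of the Oct4-Gfp line, 807 and 686 in V6.5 somatic cells and 1247 and 908 in Oct4-Gfp somatic cells. Its ESC and iPGC signals, except the 58.6 on V6.5 iPGC replicate 2, lay near the background of olfactory receptor probe sets. That background was 12.6 to 19.9 on the ESC and iPGC arrays, so the size of the differences of *Airn* depends on the added constant. These differences were -3.96 ± 0.35 and -4.69 ± 0.35 against somatic cells (adjusted p = 6.98e-05 and 3.34e-05) with all 4 of its tested probe sets called lower in Oct4-Gfp iPGCs. The strand that the labelled cDNA keeps is not given in the sources used here, so each value is that of the probe set as annotated. *Slc22a3*, a cation transporter of the domain, has no probe set listed.

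All 3 genes of the *Peg3* domain were lower in iPGCs than in somatic cells in both lines. *Peg3*, a paternally expressed zinc finger gene whose promoter is printed above, had signals of 1319 and 1517 in ESCs, 3178 and 2408 in iPGCs of the V6.5 line, 2966 and 2430 in those of the Oct4-Gfp line, 9275 and 9829 in V6.5 somatic cells and 9575 and 9972 in Oct4-Gfp somatic cells. iPGCs lay between the other cell types, with a difference of -1.78 ± 0.18 from somatic cells in V6.5 (adjusted p = 1.27e-04) and of 0.96 ± 0.18 from ESCs (0.00745). *Usp29*, transcribed from the shared promoter in the opposite direction and encoding a ubiquitin peptidase, had signals of 64.0 and 97.1 in ESCs, 241 and 182 in iPGCs of the V6.5 line, 68.97 and 76.0 in those of the Oct4-Gfp line, 2536 and 2473 in V6.5 somatic cells and 2361 and 1976 in Oct4-Gfp somatic cells. Its V6.5 iPGC arrays lay above ESCs (1.26 ± 0.21, adjusted p = 0.00505) and its Oct4-Gfp iPGC arrays lay within the range of ESCs. It was -3.49 ± 0.21 and -4.64 ± 0.21 against somatic cells. *Zim1*, a maternally expressed zinc finger gene of the domain, had signals of 20.8 and 20.8 in ESCs, 21.6 and 40.5 in iPGCs of the V6.5 line, 21.7 and 23.9 in those of the Oct4-Gfp line, 515 and 412 in V6.5 somatic cells and 345 and 428 in Oct4-Gfp somatic cells. Outside somatic cells it lay near background except on V6.5 iPGC replicate 2, and iPGCs differed by -3.41 ± 0.22 and -3.41 ± 0.22 from somatic cells.

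Of the imprinted genes on chromosome 6, *Mest* (chr6:30733506-30748466), a paternally expressed gene of the hydrolase fold family, had signals of 2077 and 1844 in ESCs, 1542 and 1596 in iPGCs of the V6.5 line, 1368 and 1442 in those of the Oct4-Gfp line, 10144 and 11067 in V6.5 somatic cells and 10016 and 8398 in Oct4-Gfp somatic cells. All iPGC arrays lay below both ESC arrays as well as below somatic cells, with differences of -2.74 ± 0.14 and -2.69 ± 0.14 against the latter (adjusted p = 7.07e-06 and 8.22e-06), whereas the difference of -0.32 ± 0.14 from ESCs was not called (0.133). *Copg2*, a coatomer subunit next to *Mest*, was -0.07 ± 0.22 and -0.07 ± 0.22. *Sgce* and *Peg10*, paternally expressed genes that start 101 bases apart and run in opposite directions, both lay between ESCs and somatic cells. *Sgce*, which encodes epsilon-sarcoglycan, had signals of 130 and 164 in ESCs, 327 and 381 in iPGCs of the V6.5 line, 325 and 366 in those of the Oct4-Gfp line, 1976 and 3364 in V6.5 somatic cells and 2056 and 1595 in Oct4-Gfp somatic cells, and *Peg10*, derived from a retrotransposon, had 1696 and 1534 in ESCs, 2406 and 2847 in iPGCs of the V6.5 line, 2323 and 2466 in those of the Oct4-Gfp line, 6256 and 7648 in V6.5 somatic cells and 6468 and 5829 in Oct4-Gfp somatic cells. V6.5 iPGCs exceeded ESCs by 1.19 ± 0.26 (adjusted p = 0.0143) and 0.69 ± 0.16 (0.0165), and differed from somatic cells by -2.82 ± 0.26 and -1.40 ± 0.16. The call of *Sgce* against ESCs was lost in 4 of 22 alternatives, among them the mean over its probe sets. That of *Peg10* was lost in 6, among them median centring. Of the 2 tested probe sets of *Sgce*, 1 was called against ESCs (differences of 0.26 and 1.19) and 1 against V6.5 somatic cells (-1.30 and -2.82). *Ppp1r9a*, which encodes neurabin, was called higher in V6.5 iPGCs (0.49 ± 0.16, adjusted p = 0.0343) but not in Oct4-Gfp iPGCs (0.07 ± 0.16), and the call was lost without either V6.5 iPGC or V6.5 somatic array.

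In the *Snrpn* domain, whose DMR the study examined, *Ndn* and *Ube3a* were lower in iPGCs than in somatic cells of both lines and the other 4 of its 6 tested genes were called in neither. *Snrpn*, a paternally expressed component of small nuclear ribonucleoproteins, has 1 tested probe set of its own, with signals of 118 and 133 in ESCs, 117 and 137 in iPGCs of the V6.5 line, 75.5 and 80.1 in those of the Oct4-Gfp line, 110 and 125 in V6.5 somatic cells and 78.6 and 85.9 in Oct4-Gfp somatic cells. It was 0.10 ± 0.14 and -0.07 ± 0.14 against somatic cells and 0.02 ± 0.14 against ESCs, with none called. The brighter probe sets are annotated to *Snurf* and *Snrpn* together. The brightest had signals of 4820 and 5114 in ESCs, 3744 and 3595 in iPGCs of the V6.5 line, 2834 and 2526 in those of the Oct4-Gfp line, 4028 and 4887 in V6.5 somatic cells and 3560 and 3577 in Oct4-Gfp somatic cells. Of 5 tested in common, 3 were called lower in Oct4-Gfp iPGCs, with differences of -0.41 ± 0.14, -0.50 ± 0.15 and -0.62 ± 0.16 (adjusted p = 0.0429, 0.0245 and 0.0129), and 0 in V6.5 iPGCs. Further along the domain are genes without introns that are read from the paternal allele. *Magel2*, of the MAGE family, had signals of 32.9 and 13.7 in ESCs, 132 and 209 in iPGCs of the V6.5 line, 152 and 135 in those of the Oct4-Gfp line, 83.5 and 147 in V6.5 somatic cells and 184 and 224 in Oct4-Gfp somatic cells. *Peg12*, related to Frat, had signals of 26.7 and 23.3 in ESCs, 140 and 257 in iPGCs of the V6.5 line, 226 and 257 in those of the Oct4-Gfp line, 224 and 225 in V6.5 somatic cells and 305 and 172 in Oct4-Gfp somatic cells. Both were low in ESCs, and both overlapped between iPGCs and somatic cells. V6.5 iPGCs were above ESCs by 2.30 ± 0.33 (adjusted p = 0.00307) and 2.37 ± 0.31 (0.00217). *Ndn*, which encodes necdin, had signals of 793 and 580 in ESCs, 1627 and 1478 in iPGCs of the V6.5 line, 2083 and 1859 in those of the Oct4-Gfp line, 4773 and 4637 in V6.5 somatic cells and 4534 and 4282 in Oct4-Gfp somatic cells and was called in all of these comparisons, -1.59 ± 0.17 and -1.16 ± 0.17 against somatic cells and 1.18 ± 0.17 against ESCs. *Mkrn3*, a ring finger gene, stayed between 64.7 and 146 with no call. *Ube3a*, a ubiquitin ligase imprinted in neurons, was -0.48 ± 0.13 and -0.70 ± 0.13 against somatic cells, calls that were both lost under median centring (adjusted p up to 0.354 in Oct4-Gfp cells). The V6.5 call was lost in 8 of 22 alternatives, among them those without any 1 of the 4 arrays compared, with adjusted p up to 0.0915.

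Single genes completed the list. *Grb10*, an adaptor of insulin receptor signalling that is maternally expressed outside the brain, had signals of 3575 and 3133 in ESCs, 1786 and 1035 in iPGCs of the V6.5 line, 1367 and 1734 in those of the Oct4-Gfp line, 8129 and 8335 in V6.5 somatic cells and 9258 and 8269 in Oct4-Gfp somatic cells. The iPGC arrays were below all others, -2.58 ± 0.25 and -2.50 ± 0.25 against somatic cells (adjusted p = 1.12e-04 and 1.38e-04) and -1.29 ± 0.25 against ESCs (0.00908). Its neighbour *Ddc*, dopa decarboxylase, had signals of 934 and 676 in ESCs, 690 and 741 in iPGCs of the V6.5 line, 804 and 877 in those of the Oct4-Gfp line, 478 and 559 in V6.5 somatic cells and 410 and 428 in Oct4-Gfp somatic cells and was called higher in Oct4-Gfp iPGCs alone (0.98 ± 0.18, adjusted p = 0.00264). *Gnas*, the stimulatory G protein subunit, had signals of 3792 and 4025 in ESCs, 2817 and 1984 in iPGCs of the V6.5 line, 2248 and 2466 in those of the Oct4-Gfp line, 7436 and 7949 in V6.5 somatic cells and 7520 and 7894 in Oct4-Gfp somatic cells and, like *Grb10*, was lowest in iPGCs, -1.70 ± 0.18 and -1.70 ± 0.18 against somatic cells and -0.72 ± 0.18 against ESCs. The call of *Gnas* against ESCs was lost in 6 of 22 alternatives, among them the mean over its probe sets. Only 1 of its 3 tested probe sets was called there, with differences from -0.72 to -0.05. *Nnat*, the proteolipid neuronatin, had signals of 180 and 396 in ESCs, 201 and 252 in iPGCs of the V6.5 line, 66.3 and 88.2 in those of the Oct4-Gfp line, 635 and 725 in V6.5 somatic cells and 566 and 371 in Oct4-Gfp somatic cells and was -1.53 ± 0.35 and -2.37 ± 0.35 against somatic cells (adjusted p = 0.00848 and 9.85e-04). *Plagl1*, a zinc finger regulator of a network of imprinted genes, had signals of 2424 and 2648 in ESCs, 4734 and 5380 in iPGCs of the V6.5 line, 4984 and 3654 in those of the Oct4-Gfp line, 4360 and 5139 in V6.5 somatic cells and 4453 and 2125 in Oct4-Gfp somatic cells. It overlapped between iPGCs and somatic cells, and its rise over ESCs was 0.99 ± 0.32 in V6.5 iPGCs (adjusted p = 0.0541) and 0.90 ± 0.32 in V6.5 somatic cells (0.0425), a call lost in 12 of 22 alternatives, among them those without any 1 of the ESC, iPGC or V6.5 somatic arrays (up to 0.166). Its probe sets did not give 1 answer: the other 2 of 3 were called higher in V6.5 iPGCs than in ESCs (1.53 ± 0.25 and 1.73 ± 0.32, adjusted p = 0.00452 and 0.00756), and 1 was called higher in Oct4-Gfp iPGCs than in somatic cells (1.25 ± 0.32, 0.0134). *Impact*, which modulates translation under stress, had signals of 1303 and 1132 in ESCs, 1825 and 1670 in iPGCs of the V6.5 line, 1563 and 1837 in those of the Oct4-Gfp line, 2181 and 2561 in V6.5 somatic cells and 1744 and 1981 in Oct4-Gfp somatic cells. *Impact* was -0.43 and -0.13 against somatic cells, not called in either line. Its other tested probe set was called lower in iPGCs of both lines, -0.82 in V6.5 and -1.65 in Oct4-Gfp cells. *Nap1l5* stayed between 13.8 and 71.5 and was not tested, and *Zrsr1* has no probe set listed.

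Against ESCs, the genes called in V6.5 iPGCs fell largely into higher paternally expressed and lower maternally expressed genes. Of 18 paternally expressed genes, 9 were higher in iPGCs and 0 lower: *Igf2*, *Peg12*, *Magel2*, *Usp29*, *Sgce*, *Ndn*, *Peg3*, *Peg10* and *Impact*. Of 13 maternally expressed genes, 1 was higher, *Igf2r*, and 4 were lower, *Ascl2*, *Grb10*, *Mirg* and *Rian*. The shared probe set of *H19*, a maternally expressed gene outside these counts, was higher by 1.22 ± 0.27 (adjusted p = 0.0155). *Gnas* was lower, so 10 of 32 were higher and 5 lower, against 17.3% and 12.9% of all genes. The median difference was 0.61 for paternally and -0.09 for maternally expressed genes, and 0.05 for all genes. Genes of 1 domain are not independent of each other, the imprinting of *Ascl2* and *Grb10* depends on the tissue, and this split by allele was not tested. Feeder-type genes went both ways: of 9 fibroblast genes tested, 4 were called lower in V6.5 iPGCs than in ESCs, *Col1a2*, *Lox*, *S100a4* and *Thy1*, and 2 higher, *Col1a1* and *Twist2*. *Col3a1*, *Fbln2* and *Postn* were not called. Summed over the fibroblast list, the signal was 970 and 1207 on the ESC arrays and 792 and 766 on the V6.5 iPGC arrays. The part of feeder RNA in the falls was not tested. Of the 9 calls higher, 3 to 9 held in the alternatives run, and of the 5 calls in maternally expressed genes 1 to 5 held, with the fewest under a threshold of 3-fold and unadjusted p under 0.01. The 15 calls in all became 8 without ESC replicate 1, with 6 of the 9 and 2 of the 5 among them, and 9 without V6.5 iPGC replicate 2, while the calls over all genes went from 30.2% to 15.8% and 23.1%. The call of *Impact* was lost in 16 of 22 alternatives and rests on 1 of 2 probe sets: the other differed by -0.72, and the mean of both gave -0.10 (adjusted p = 0.570).

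V6.5 somatic cells, compared with the same 2 ESC arrays, were higher in 24 of 32 genes and lower in 3, *Ascl2*, *Slc22a18* and *Ddc*, against 30.3% and 31.8% of all genes. Both classes rose there, 14 of 18 paternally and 9 of 13 maternally expressed genes, with *Gnas* in addition. The median difference was 1.29 over the 32 genes and -0.04 over all genes. Of the 4 maternally expressed genes that fell in iPGCs against ESCs, 3 were above ESCs in somatic cells, *Grb10* by 1.29 ± 0.25, *Mirg* and *Rian*. *Cdkn1c*, *Dlk1*, *Airn*, *Mest*, *Zim1*, *Meg3*, *Nnat*, *Phlda2*, *Plagl1* and *Ube3a* were higher than in ESCs in somatic cells and not called in iPGCs.

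**Figure D3:**
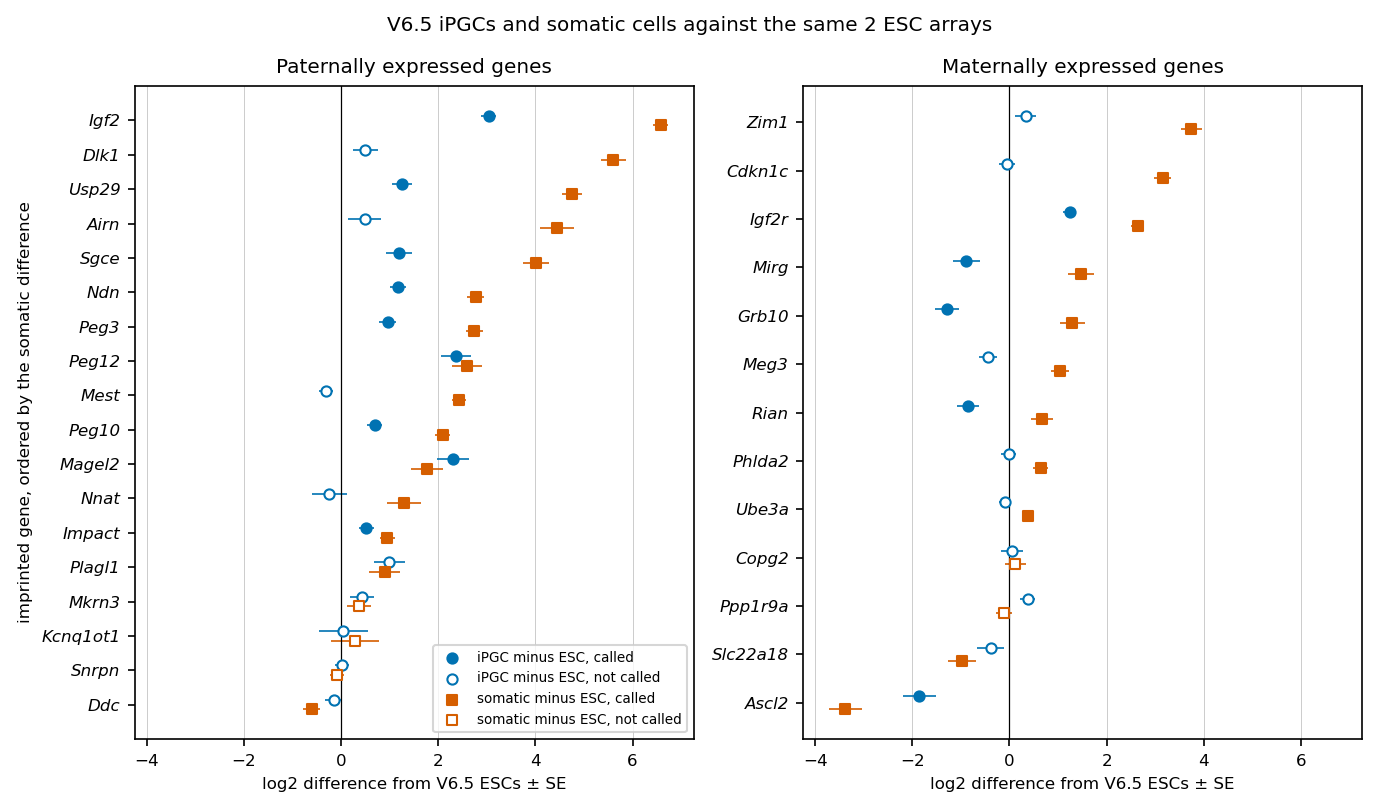
Log2 difference from V6.5 ESCs (± SE) of V6.5 iPGCs (blue circles) and V6.5 somatic cells (orange squares) for 18 paternally expressed (left) and 13 maternally expressed genes (right), filled where called. Both sets share the 2 ESC arrays. Filled blue points lie to the right of 0 on the left panel and, except *Igf2r*, to the left of 0 on the right panel, while 23 of the 31 orange points are filled and above 0.

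Mesoderm markers moved with the rises in iPGCs. Their summed signal was 1208 and 1289 on the V6.5 iPGC arrays, 229 and 293 on the ESC arrays and 23786 and 23794 on the V6.5 somatic arrays, and 4 of the 8 were called higher in V6.5 iPGCs than in ESCs. For the 7 markers above ESCs in somatic cells, the rise of V6.5 iPGCs over ESCs amounted to 1.02% to 5.90% of the rise of somatic cells, on the linear scale of group means. *Tnnt2*, *Gata6* and *Isl1*, 3 of the defining markers, had ESC means of 8.69, 13.6 and 13.2, at background, and none was listed at 0. The same share was 5.41% for *Usp29*, within the range of the markers, 7.62% for *Igf2* and 8.20% for *Sgce*. It was 16.9% for *Peg3*, 18.9% for *Peg10*, 21.6% for *Ndn*, 26.1% for *Igf2r* and 45.9% for *Impact*. It reached 87.1% for *Peg12* and 160% for *Magel2*, and for *Plagl1*, not called in iPGCs, it was 114%. These genes, except *Plagl1*, were picked for being called higher in iPGCs than in ESCs, whereas the markers were not. For the 14 genes that rose in somatic cells and were not called higher in iPGCs, the share ran from -75.2% to 114%. Its median there was -10.2%. Visceral endoderm genes summed to 163 to 430 on iPGC arrays and 206 to 230 on ESC arrays. The part of somatic RNA in these values was not tested.

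Of the 32 genes, 0 were called between the iPGCs of the lines, 0 between their somatic cells and 0 in the difference between lines of the contrast of iPGCs and somatic cells, where 0%, 0.0819% and 0.00819% of all genes were called by limma. At an unadjusted p under 0.05 the genes of the list numbered 7, 6 and 5, and those of all genes 2440, 1445 and 1119. The genes of the list that differed by at least 1 log2 unit between the iPGCs of the lines were lower in Oct4-Gfp iPGCs, without passing the test. The differences were -1.23 ± 0.16 for *Igf2* (adjusted p = 0.0694), -1.40 ± 0.26 for *Dlk1* (0.0698), -1.39 ± 0.35 for *Nnat* (0.0983), -1.36 ± 0.21 for *Usp29* (0.0694) and -1.11 ± 0.16 for *Phlda2* (0.0694). The probe sets did not all show this: the other tested one differed by 0.12 for *Dlk1*, 0.39 for *Usp29* and -0.46 for *Igf2*. *Nnat* and *Phlda2* have 1 tested probe set each. How many of all genes differed as much was not counted. Between the somatic cells the difference of *Dlk1* was -1.52 ± 0.26 (adjusted p = 0.143). With limma-trend 5 genes of the list were lower in Oct4-Gfp iPGCs, where 3.55% of all genes were called in either direction. The difference between lines in the contrast was -1.09 ± 0.22 for *Igf2* (adjusted p = 0.247) and -0.99 ± 0.22 for *Phlda2* (0.255). The ratio of *Gapdh* control signals was highest in Oct4-Gfp iPGCs, as given above, and its part in these differences was not tested.

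**Figure D4:**
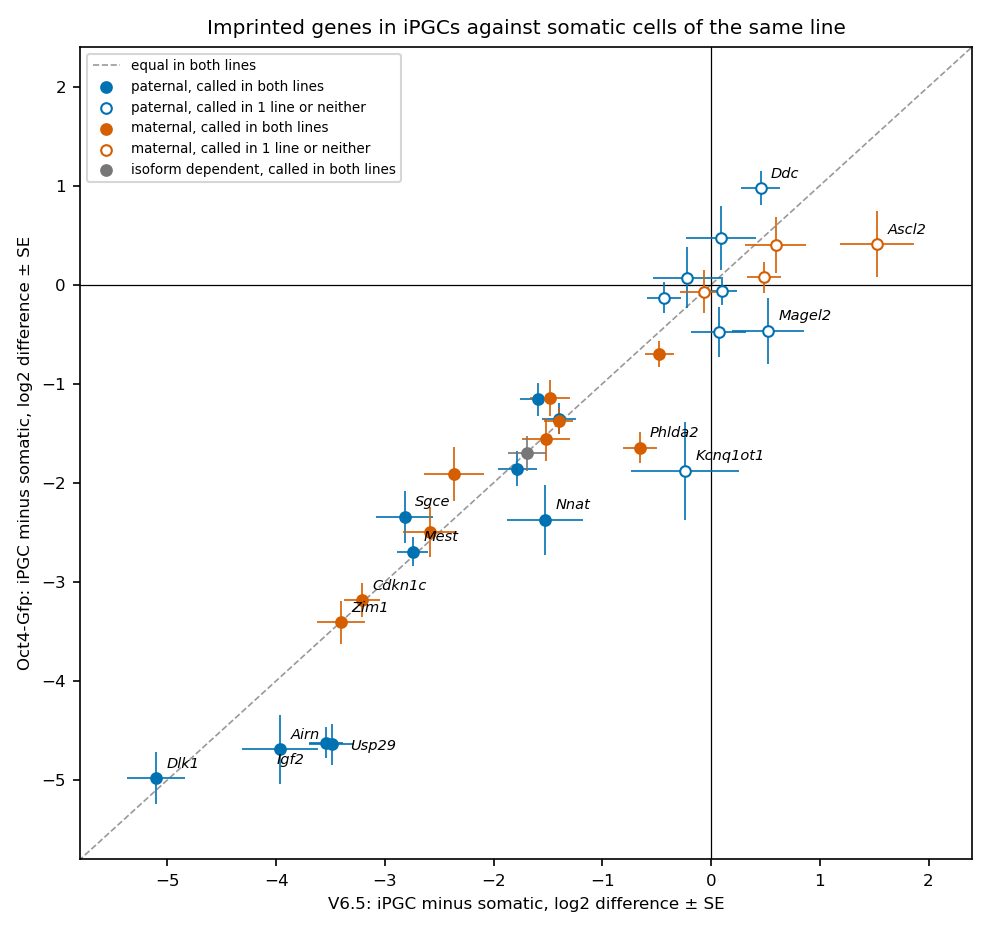
Log2 difference (± SE) between iPGCs and somatic cells for 32 imprinted genes in the V6.5 line (x axis) and the Oct4-Gfp line (y axis), which share no arrays. Filled points were called in both lines and the dashed line marks equal differences. All 20 filled points lie below 0 on both axes, and *Igf2*, *Usp29*, *Phlda2*, *Nnat* and *Kcnq1ot1* lie below the dashed line.

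Imprinted genes outside the list were counted for comparison. Of 29 tested, 8 lay higher and 11 lower in the iPGCs of each line against somatic cells, where 27.3% and 24.2% of all genes were called in V6.5 and 25.7% and 24.8% in Oct4-Gfp cells. *Cobl*, an actin nucleator, was 5.56 ± 0.18 and 5.29 ± 0.18 against somatic cells, *Sfmbt2*, a Polycomb-related gene of trophoblast, 2.41 ± 0.18 and 2.63 ± 0.18, and *Atp10a*, a phospholipid transporter, 2.27 ± 0.23 and 1.86 ± 0.23. *Asb4* (-3.80 ± 0.25 and -3.79 ± 0.25), *Ano1* (-3.38 ± 0.22 and -4.06 ± 0.22) and *Klf14* (-3.07 ± 0.31 and -3.72 ± 0.31) were lower. Against ESCs 11 rose and 4 fell in V6.5 iPGCs, where 17.3% and 12.9% of all genes did.

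Genes that keep or remove DNA methylation at imprints were measured beside them. Of 19 tested, 9 lay above and 1 below somatic cells in V6.5 iPGCs, and 9 above and 2 below in the other line, where 27.3% and 24.2% of all genes were called in V6.5 and 25.7% and 24.8% in Oct4-Gfp cells. *Dppa3*, a maternal protector of methylation that is also a PGC marker, was 6.18 ± 0.31 and 6.23 ± 0.31, and *Dnmt3l*, the cofactor of new methylation, 5.34 ± 0.32 and 4.46 ± 0.32. *Zfp57* itself was 1.01 ± 0.17 and 1.52 ± 0.17 and its partner *Trim28* 0.44 ± 0.13 and 0.49 ± 0.13, whereas the dioxygenases *Tet1* (1.93 ± 0.14 and 1.90 ± 0.14) and *Tet3* (-1.44 ± 0.30 and -1.74 ± 0.30) went opposite ways. *Dnmt1*, which copies methylation after replication, was 0.04 ± 0.14 and 0.24 ± 0.14 with no call. Against ESCs, where 17.3% of all genes were higher and 12.9% lower, 3 of the 19 were higher in V6.5 iPGCs and 5 lower, *Dnmt3l* (-1.49 ± 0.32), *Zfp57* (-1.10 ± 0.17), *Tet1* (-1.02 ± 0.14), *Tet2* (-0.62 ± 0.14) and *Uhrf1* (-0.56 ± 0.13).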

How the data were processed

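The values are signal intensities on a linear scale that the authors deposited for 10 Affymetrix Mouse Genome 430 2.0 arrays (5 sorted populations, 2 arrays each, total RNA amplified with a whole-transcript kit per the labels). The submitters' processing notes name MAS5 without a version, and each array is scaled to a trimmed mean of 500 (2% left out at each end). The methods of the paper name D-Chip instead, and no such values were used here. No detection calls were used, and the number of arrays limits the precision.

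From these intensities, 64 control probe sets were left out and log2(signal + 14.8) was taken, the constant being the 25th percentile of the table. A probe set was tested where 2 or more arrays exceeded their own median (26368). R 4.3.3 with limma 3.58.1 served for a single linear model of the 5 groups, with 5 residual degrees of freedom and 2.92 from the prior. Its two-sided p-values received the Benjamini-Hochberg adjustment across the 26368 probe sets, and a call needs an adjusted p under 0.05. A gene stands for its tested probe set with the highest mean, and symbols come from the platform annotation, with 8 probe sets annotated to a member and another gene kept apart. All 96 probe sets of the members matched the RefSeq gene number. Background was the 95th percentile of 44 olfactory receptor probe sets per array. The fit was tested on simulated data.

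Values on every array are given for members called in a comparison of iPGCs with somatic cells or ESCs and for *H19*, *Meg3*, *Airn*, *Kcnq1ot1* and their partners, others by range. Small changes with few values (*Copg2*, *Mkrn3*, *Ube3a*, *Ppp1r9a*, *Slc22a18*) are given as differences or ranges. The members, the lists beside them and the tests were chosen with earlier results of these data known. Alternatives were a floor, a doubled offset, no filter, 2 other filters, quantile normalization, median centring, only the arrays compared, limma-trend, the replicate number as a block, the mean over probe sets, a threshold of 3-fold and unadjusted p under 0.01, and each array left out. Plots were drawn with matplotlib 3.10.9.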

Additional observations from a re-analysis of the deposited data

How the results depend on the processing

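Of 86 gene calls named above, 46 held under every alternative, and 1 turned, that of *Impact* in V6.5 iPGCs against ESCs (-0.10 as the mean over its 2 probe sets, adjusted p = 0.570). With a threshold of 3-fold and unadjusted p under 0.01, the genes called numbered 13 in V6.5 iPGCs against somatic cells, 15 in Oct4-Gfp cells, 4 in V6.5 iPGCs against ESCs and 15 in V6.5 somatic cells against ESCs. In the same order, 16.6%, 15.5%, 4.33% and 20.4% of all genes were called. Leaving out 1 array gave 18 to 23 calls in V6.5 iPGCs against somatic cells, 22 in Oct4-Gfp cells, 8 to 15 in V6.5 iPGCs against ESCs (8 without ESC replicate 1, 9 without V6.5 iPGC replicate 2), 21 to 27 in V6.5 somatic cells against ESCs and 0 in each comparison of lines. Where the array left out belonged to the comparison, its group kept 1 array. The share of all genes called then fell too, in each of these comparisons of cell types. A lower count in such a fit is therefore not specific to the list. With limma-trend 5 genes were called between the iPGCs of the lines and 1 between their somatic cells, and median centring also called 1 there. In these settings 3.55%, 0.262% and 0.188% of all genes were called. The remaining alternatives kept each count within 1.5 times. Between scalings, the median difference of all probe sets in Oct4-Gfp iPGCs against somatic cells was -0.11 as deposited, 0.03 after quantile normalization and 0.34 after median centring, and that between lines in this contrast was -0.10, 0.01 and 0.37. Array deviations of equal replicate numbers correlated between -0.29 and 0.26. With 2 arrays per group, these correlations cannot tell whether equal numbers mark samples of the same culture. With the replicate block the counts were 21, 22, 14 and 26 in the comparisons of cell types and 0 between lines. For the cell types, 49.2%, 48.1%, 26.5% and 60% of all genes were called. Genes near background, such as *Airn* and *Zim1* outside somatic cells, have differences that depend on the added constant.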
